A study of Mus musculus with 2 samples.

Results

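The enzymes described here make glutathione, keep it reduced, and remove superoxide and peroxides. They are the products of 10 genes, chosen by symbol with earlier results of these data known. The genes are Gclc, Gclm, Gss, Gsr, Gpx1, Gpx4, Cat, Sod1, Sod2 and Prdx1. Every probe set that the platform annotation gives to 1 of these symbols was taken, whatever its value, which left 16 probe sets for 9 of the 10 genes, out of 12393 genes with such a probe set on the array. For Prdx1, all 5 probe sets are annotated jointly to Gm21399 and Prdx1. Their values are given below under the joint name and enter no count.

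The RNA came from liver of mice that lack apolipoprotein E, a strain with high plasma cholesterol that is prone to atherosclerosis. All animals, in both groups, carried this deficiency and ate a high-fat diet. One group had olive oil added to that diet and the other had the unsaponifiable fraction of olive oil, meaning the oil constituents left after the fatty acid esters are removed. The sample of the second group is titled orujo, and its array is called the orujo array below. Each diet is represented by 1 Affymetrix oligonucleotide array, so no ratio has an error between animals and no test of the diets was possible. For sex, age, and whether RNA of several animals was pooled, no label gives a value.

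Glutathione is a tripeptide thiol that liver makes in large amounts and exports to plasma. Glutamate-cysteine ligase, a pairing of the catalytic subunit GCLC with the modifier subunit GCLM, catalyses the rate-limiting step, and glutathione synthetase adds glycine. Superoxide dismutases turn superoxide into hydrogen peroxide, which catalase, glutathione peroxidases and peroxiredoxins reduce further, and glutathione reductase returns oxidised glutathione to its thiol form with NADPH. Several of these genes are known targets of the transcription factor NRF2.

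The sharpest differences among the members concerned Gclc and Sod1. Both Gclc probe sets had more than 2-fold lower signal on the orujo array, while the partner subunit Gclm was 1.20-fold lower and Gss was nearly equal. Sod1 had 2.36-fold higher signal in its bright probe set and 1.41-fold lower signal in its dim one. The remaining probe sets differed by less than 1.6-fold. Of the 16 probe sets, 15 were above the floor on both arrays and are called measured. The floor was a scaled intensity of 35.6, the pooled median of both arrays, and stands in for detection calls.

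Among the 15 measured probe sets, 1 passed 2-fold with higher signal on the orujo array and 2 passed it with lower signal. The same limit was passed by 1.36% of all 10462 measured probe sets with higher and by 1.08% with lower signal. The member shares, 6.67% and 13.3%, are larger, but each rests on a single gene, since both lower probe sets read Gclc and the higher one reads Sod1. The members were also chosen with earlier results of these data known. Their shares and those of the whole array, here and below, are therefore set side by side as description only. Probe sets of one gene share their transcript and are not replicates. With a limit of 1.5-fold, 1 member probe set was higher and 3 were lower, against 5.9% and 5.59% of all measured probe sets. A log2 ratio below 0, meaning lower signal on the orujo array, was found in 13 of 15 measured probe sets, against 51.4% of all measured probe sets. The median log2 ratio was −0.19 over the member probe sets and −0.01 over all measured probe sets. The plot of intensities by probe set shows both arrays side by side.

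**Figure D1:**
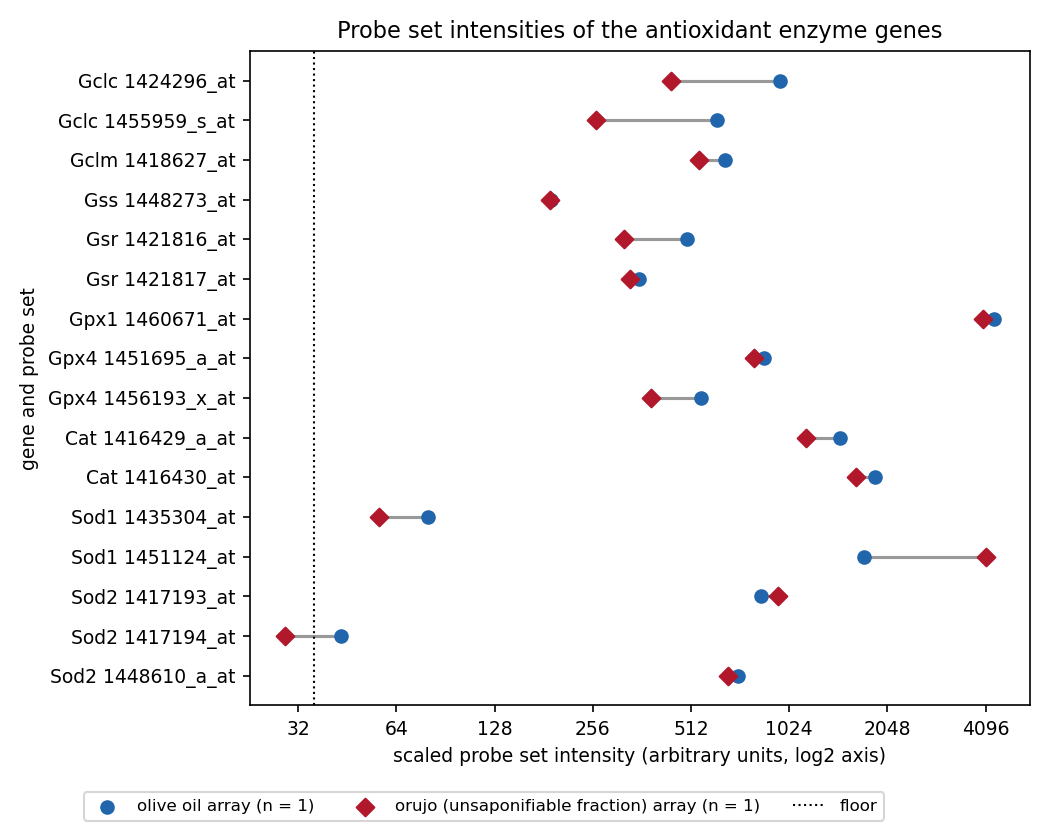
Scaled intensity (horizontal axis, arbitrary units, log2 axis) of each of the 16 probe sets with a single member symbol (vertical axis). Blue circles are the olive oil array and red diamonds the orujo array (1 array each), and the dotted line is the floor of 35.6. The widest gaps are those of both Gclc probe sets, with the red diamond to the left, and of Sod1 1451124_at, with the red diamond to the right.

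Glutathione synthesis came first in the pathway, and 1 of its 3 genes, Gclc, held the lowest ratios among the members. Gclc (Entrez 14629), the catalytic subunit of glutamate-cysteine ligase, had a deposited intensity of 444 on the orujo array and 960.9 on the olive oil array in probe set 1424296_at. In its other probe set, 1455959_s_at, the intensities were 261 and 617.7. Both probe sets therefore had the lower value on the orujo array, and by nearly the same proportion. The log2 ratios were −1.11 (2.16-fold) and −1.24 (2.36-fold). Only 0.832% and 0.640% of all measured probe sets had a lower ratio than these. The suffix of 1455959_s_at marks sequence that other transcripts can share, whereas 1424296_at carries no such mark. In whole-liver RNA, fewer cells of a type and less transcript per cell cannot be told apart.

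Gclm (Entrez 14630), the modifier subunit, which raises the catalytic efficiency of GCLC, read 542.4 against 653.2 in its single probe set, 1418627_at. Its log2 ratio of −0.27 has the same sign as that of Gclc and is smaller in size, and 22.4% of all measured probe sets had a lower ratio. Gss (Entrez 14854), glutathione synthetase, read 188.9 against 190.9 in 1448273_at, a log2 ratio of −0.01. The difference between the log2 ratios of Gclc and Gclm was −0.85 with one Gclc probe set and −0.97 with the other. The only repeated measurement in the series is a gene read by 2 probe sets. Over 1453 genes with exactly 2 measured probe sets, the SD of that difference in log2 ratio was 0.44. Divided over both probe sets, this gives an SD of 0.31 for one of them, called the single probe set noise here. It is a scale for comparison and not a limit. The gaps between Gclc and Gclm were 1.90 and 2.19 times that SD of 0.44, and 6.54% and 3.58% of same-gene pairs lay at least as far apart. Against Gss the gaps were −1.10 and −1.23, with 1.58% and 1.03% of same-gene pairs at least as far apart. Such pairs come from the same labelled RNA, so their spread holds nothing of the variation between animals.

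Glutathione reductase, encoded by Gsr (Entrez 14782), uses NADPH to regenerate the thiol. Its probe set 1421816_at read 318.6 on the orujo array and 499.2 on the olive oil array, a log2 ratio of −0.65. Its second probe set, 1421817_at, read 331.8 and 355.8, a log2 ratio of −0.10. Both had the lower value on the orujo array, but they disagreed in size by 0.55, a wider gap than in 80.1% of genes with 2 probe sets. A difference of this size in Gsr rests on 1 of its 2 probe sets.

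The glutathione peroxidases GPX1 and GPX4 are selenoproteins that use glutathione to reduce hydrogen peroxide and, for GPX4, lipid hydroperoxides in membranes. Gpx1 (Entrez 14775) had intensities of 4023.3 and 4359.7 in 1460671_at, with a log2 ratio of −0.11 in favour of the olive oil array. Gpx4 (Entrez 625249) read 798.8 against 858.1 in 1451695_a_at, a log2 ratio of −0.10. The other Gpx4 probe set, 1456193_x_at, read 384.2 against 549, a log2 ratio of −0.51. All 3 peroxidase probe sets had lower signal on the orujo array, and 2 of them by less than the single probe set noise of 0.31. Both Gpx4 probe sets have suffixes that mark shared sequence.

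Catalase, a peroxisomal enzyme that is abundant in hepatocytes, splits hydrogen peroxide into water and oxygen. Cat (Entrez 12359) read 1155.5 on the orujo array and 1469.6 on the olive oil array in 1416429_a_at. In 1416430_at the values were 1643.7 and 1880.1. The log2 ratios, −0.34 and −0.19, had the same sign and were 0.15 apart. Of all measured probe sets, 32.3% and 56.7% had a ratio at least as large in size, so neither value stands out from the bulk of the array.

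Superoxide dismutases gave the widest range. SOD1 is the copper and zinc enzyme of the cytosol. Sod1 (Entrez 20655) read 4095.2 on the orujo array and 1737.5 on the olive oil array in probe set 1451124_at, a log2 ratio of 1.24 that exceeds those of 99.3% of measured probe sets. In 1435304_at the order was the opposite, 56.5 against 80.1, a log2 ratio of −0.50. The probe sets thus disagree in direction, the dim one lying close to the floor. The gap between them, 1.74, was 3.91 times the SD between probe sets of a gene and wider than in 99.8% of genes with 2 measured probe sets. Averaging both would give a log2 ratio of 0.37, a value that neither probe set shows, so no single direction is given for Sod1.

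SOD2, the manganese enzyme of mitochondria, is read by 3 probe sets. Sod2 (Entrez 20656) read 947.4 against 840.7 in 1417193_at, a log2 ratio of 0.18. It read 665.6 against 714.1 in 1448610_a_at, a log2 ratio of −0.10. The signs differ, and both values are within the single probe set noise of 0.31. The last probe set, 1417194_at, read 29.2 against 43.2 and cleared the floor in the olive oil sample alone, where it was at least 1.21-fold higher. Sod2 therefore showed no common direction.

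**Figure D2:**
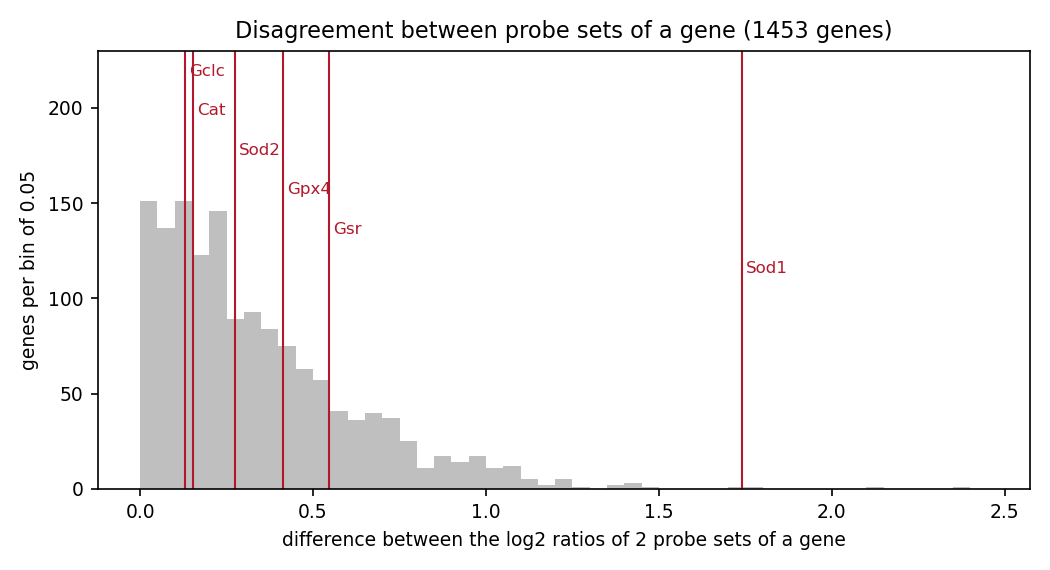
Difference between the log2 ratios of 2 probe sets of a gene (horizontal axis) for the 1453 genes with exactly 2 measured probe sets, as a count of genes per bin (vertical axis). Red lines mark the 6 member genes with 2 measured probe sets. Gclc, at 0.13, lies below the median difference of 0.26 and Sod1, at 1.74, at the far right.

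Of the 6 member genes with 2 measured probe sets, 4 had the same sign in both and 2, Sod1 and Sod2, had both signs. The plot of differences between probe sets shows how the members compare with other genes. The 2 Gclc probe sets were only 0.13 apart, closer than the median gap of 0.26 over all such genes. Gpx4, at 0.41, and Sod2, at 0.27, were within the SD of 0.44, while Gsr and Sod1 were outside it.

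Peroxiredoxin 1 is an abundant thiol peroxidase that is reduced by thioredoxin. The 5 probe sets annotated jointly to Gm21399 and Prdx1 had log2 ratios between −0.12 and 0.11, of which 3 were negative and 2 positive. The brightest read 2708.1 on the orujo array and 2939.2 on the olive oil array, and the dimmest 162.5 and 151.2. All were within the single probe set noise of 0.31. These values cannot be assigned to Prdx1 alone.

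The plot of ratio against intensity places the members among all probe sets. Both Gclc probe sets and the bright Sod1 probe set were above a scaled intensity of 101, the 75th percentile, on both arrays. The dim Sod1 probe set and 1417194_at of Sod2 were below that level on both.

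**Figure D3:**
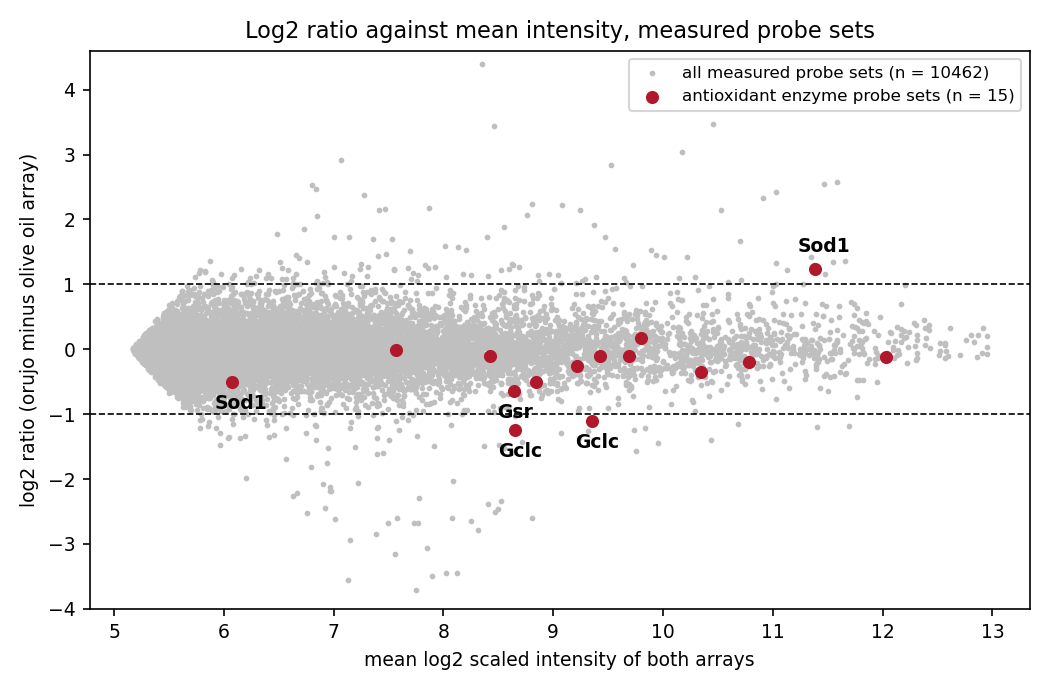
Log2 ratio of the orujo array over the olive oil array (vertical axis) against the mean log2 scaled intensity of both arrays (horizontal axis). Grey points are all 10462 measured probe sets, red points the 15 measured member probe sets, and dashed lines mark 2-fold. Both Gclc points lie below the lower dashed line, the bright Sod1 point lies above the upper one, and the other members fall between them.

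NRF2 binds an antioxidant response element whose core can be written TGACNNNGC. RefSeq promoter windows of 300 bases (assembly GRCm38.p6), from 250 bases before to 50 after an annotated start, were at hand for 8 of the 10 genes: Cat, Gclm, Gpx1, Gpx4, Gss, Prdx1, Sod1 and Sod2. Both strands were searched for the core. It was present for 3 of these genes, in 3 of their 11 windows, and in 12.4% of all 32851 windows. The matching stretches of 31 bases are shown because they let the core be set beside the array values. All 3 genes lie on the plus strand, and the sequences read 5′ to 3′ on that strand. The core is on the opposite strand in each, so the capitals, which mark the match, show its reverse complement.
Gclm, chr3:122245412-122245442, plus strand: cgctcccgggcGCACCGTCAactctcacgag
Prdx1, chr4:116685455-116685485, plus strand: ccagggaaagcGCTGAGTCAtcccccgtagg
Sod1, chr16:90220695-90220725, plus strand: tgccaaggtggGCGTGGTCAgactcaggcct

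The match lies at −134 to −126 relative to the annotated start for Gclm, at −133 to −125 for Prdx1 and at −56 to −48 for Sod1. The log2 ratios of the genes with these letters are repeated here. Gclm was at −0.27, the Sod1 probe sets were at 1.24 and −0.50, and the probe sets annotated jointly to Gm21399 and Prdx1 were within 0.12 of 0. A match describes letters in this window and is not evidence of binding. No window was at hand for Gclc or Gsr, and a part of NRF2 in the array values was not tested. Windows of Cat, Gpx1, Gpx4, Gss and Sod2 do not hold these letters.

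The neighbouring steps were read from a list of 62 other genes of peroxide removal, thiol reduction, glutathione breakdown, cysteine and NADPH supply, and selenium handling. Of these, 54 had a probe set with a single symbol, and 66 of their 86 probe sets were measured. In this list 2 probe sets passed 2-fold with higher signal on the orujo array and 1 with lower. Those shares, 3.03% and 1.52%, compare with 1.36% and 1.08% over the whole array. The median log2 ratio was 0.01, with 34 positive and 32 negative values. The plot of ratios by role sets these groups beside the members.

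**Figure D4:**
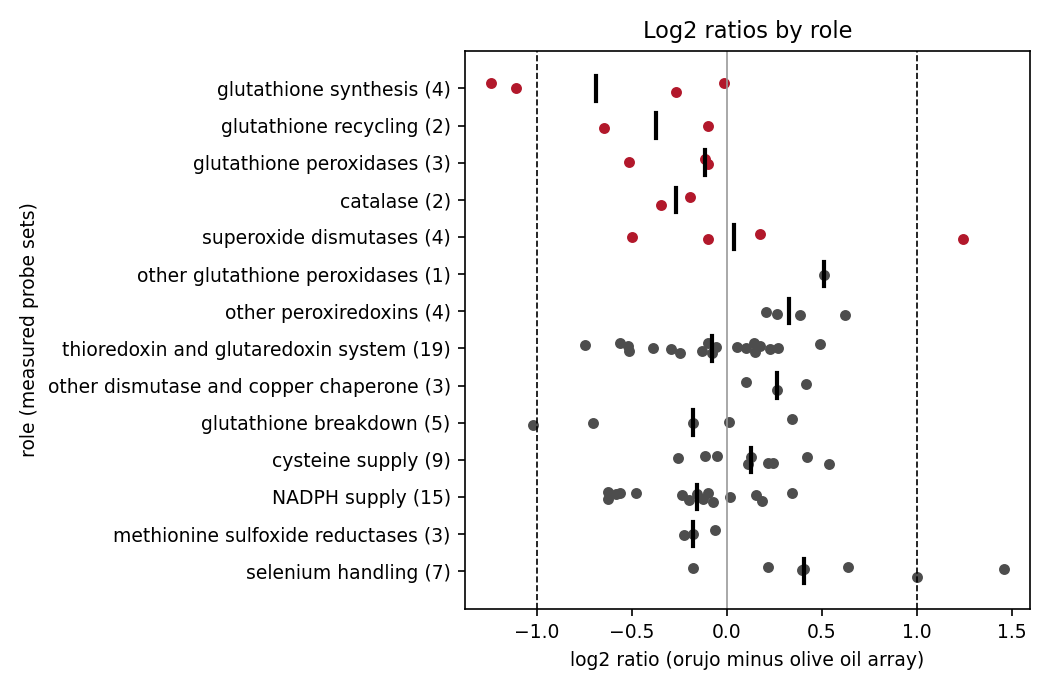
Log2 ratio of the orujo array over the olive oil array (horizontal axis) for each measured probe set, by role (vertical axis, number of probe sets in parentheses). Red points are members, grey points the related genes, black bars the median of a role, and dashed lines 2-fold; vertical scatter within a role has no meaning. Glutathione synthesis has the lowest median, −0.69 over 4 probe sets, of which 2 read Gclc. Selenium handling includes the highest point, 1.46.

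Selenium handling includes the supply of selenocysteine, which GPX1 and GPX4 carry at their active sites. Sephs2, the selenophosphate synthetase that activates selenium for that purpose, read 1621.6 against 591.6 in 1449040_a_at, 2.75-fold higher on the orujo array. The suffix of that probe set marks sequence that other transcripts can share. The other Sephs2 probe sets carry no such mark and gave the same direction with smaller ratios. They were at 2.002-fold in 1435602_at (3494.7 against 1749.3) and 1.31-fold in 1418325_at (1037.2 against 791.6). The middle value sits on the 2-fold limit and fell short of it with no scaling, quantile normalization, loess and log2(value + floor), at 1.85-fold to 1.998-fold. Sepsecs, the synthase that makes selenocysteine on its transfer RNA, read 64 against 41.3, 1.55-fold higher and close to the floor. Of 7 measured probe sets in this role, from 5 genes, 6 had positive log2 ratios, several of them from Sephs2 alone. The median of 0.41 was the value of Selenof, and Eefsec was at −0.18. These counts therefore give no direction for the supply of selenocysteine. The Gpx1 and Gpx4 probe sets, as described above, had log2 ratios between −0.51 and −0.10.

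All 4 measured probe sets of peroxiredoxins other than Prdx1 had higher signal on the orujo array, within 2-fold. Prdx4, the enzyme of the endoplasmic reticulum, read 808.2 against 526.8 in 1416167_at (log2 ratio 0.62) and 121.3 against 101.1 in 1435731_x_at (0.27). Its remaining probe set, 1416166_a_at, cleared the floor in the orujo sample alone, at 36.7 against 20.8. Prdx2, a cytosolic enzyme that is abundant in red cells, read 483.7 against 371.1 (0.39), and its second probe set was below the floor on both arrays. Prdx3, the mitochondrial enzyme, read 614.6 against 534.6 (0.20). Of these 4 measured values, 2 exceed the single probe set noise of 0.31, which is 1 SD. Of all measured probe sets, 27.4% had a ratio at least as large in size as the 0.39 of Prdx2. For the 0.62 of Prdx4 the share was 9.94%. For Prdx5 and Prdx6, also on the list, no probe set with a single symbol was found, so they have no value here.

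Among the other glutathione peroxidases, Gpx3, the secreted plasma enzyme, read 100.1 against 70.3, a log2 ratio of 0.51. Gpx2, Gpx5, Gpx6 and Gpx7 had 1 probe set each and lay below the floor on both arrays, with deposited intensities between 3.9 and 27.8, so no ratio is given for them. The secreted dismutase Sod3 and Ccs, the copper chaperone of SOD1, had 3 measured probe sets with log2 ratios between 0.10 and 0.41. The highest was that of Sod3 1417634_at, which read 48.3 against 36.3, close to the floor. The brighter Sod3 probe set, 1417633_at, was at 0.26. Ccs itself was at 0.10, a smaller ratio than that of the bright Sod1 probe set.

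Glutathione breakdown had the list's lowest ratio. Chac2, a γ-glutamylcyclotransferase that degrades glutathione, read 75.5 against 153.4, 2.03-fold lower on the orujo array. It no longer passed 2-fold with log2(value + floor), at 1.70-fold, and had no ratio with the floor at the 75th percentile, where it was not measured on both arrays. Anpep, an aminopeptidase of the cell surface, read 155.6 against 254.3, a log2 ratio of −0.71. Both were therefore lower on the same array as Gclc. Over the 5 measured probe sets of this role the median was −0.18, and 3 were negative.

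The thioredoxin and glutaredoxin genes did not lean one way, with 8 positive and 11 negative log2 ratios and a median of −0.08. Srxn1, the sulfiredoxin that repairs overoxidised peroxiredoxins, was lowest at −0.75 in 1419942_at. Its other 3 probe sets were at 0.05, 0.49 and −0.25, so the gene had no common direction. None of the 19 measured probe sets in this role passed 2-fold. Only 1.36% of all measured probe sets passed it with higher and 1.08% with lower signal. A count of 0 in a role of this size therefore says little, here and below.

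NADPH supply, on which glutathione reductase depends, had 11 negative ratios among 15 and a median of −0.16, with 0 past 2-fold. Tkt, the transketolase of the pentose phosphate pathway, was at −0.63 and −0.58 in its 2 probe sets, the first reading 161.9 against 250.4. Me1 was at −0.62 and −0.48, while the Pgd probe sets had both signs, between −0.56 and 0.34. The genes listed under cysteine supply had 6 positive and 3 negative ratios, between −0.26 (Cbs) and 0.54 (Cth), also with 0 past 2-fold. Both Cbs probe sets were negative, at −0.12 and −0.26, while Cdo1 (0.11) and Bhmt (0.24) were among the positive ones. The list mixes steps, so its counts give no direction for the cysteine that feeds glutamate-cysteine ligase. The methionine sulfoxide reductases, which repair oxidised methionine, had 3 measured probe sets between −0.22 and −0.06.

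Apoe, which these mice lack, read 99.6 on the orujo array and 102.7 on the olive oil array in its single probe set. It is not known here which part of the gene that probe set reads, so the value checks no label. Markers of liver and of other cell types were read on the same arrays. All 16 hepatocyte marker probe sets, from 8 of 10 listed genes, were measured, with a median log2 ratio of 0.12, a summed scaled intensity of 78158 on the orujo array and 73086 on the olive oil array, and 0 past 2-fold. The exocrine pancreas differed: all 15 measured probe sets had over 2-fold less signal on the orujo array (median −2.67), and the sum over 20 probe sets was 1533 against 10352. Neutrophil probe sets summed to 3688 against 771, with 8 of 11 above the floor on the orujo array and 6 of 11 on the olive oil array. Lcn2, which liver also makes in inflammation, gave 3308 of the first sum and 400.5 of the second, and the other 10 probe sets summed to 380 against 371. The median log2 ratio of the 6 measured neutrophil probe sets was −0.07, with 1 past 2-fold in each direction. Macrophage sums were 5117 and 4525 (15 of 15 above the floor on both arrays), endothelial sums 492 and 442 (6 and 5 of 8), and cholangiocyte sums 54.5 and 63.8 (0 and 1 of 5). None of these marker probe sets was listed at 0. Erythroid markers, relevant since red cells hold much SOD1, catalase, GPX1 and peroxiredoxin 2, summed to 285 against 274 over 10 probe sets of 5 of 11 listed genes, of which 2 probe sets were above the floor. Among the array's own controls, 18S ribosomal RNA gave log2 ratios of 2.54 at its 5′ end, 2.48 in its middle and 0.34 at its 3′ end. The messenger RNA controls differed less along their length, with β-actin between −0.27 and 0.01 and Gapdh between 0.09 and 0.15. The part of pancreatic RNA and of RNA quality in the lower Gclc and higher bright Sod1 values was not tested.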

How the data were processed

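The authors deposited 1 linear intensity per probe set and array. Per the labels, these are Affymetrix arrays hybridised with targets from liver RNA. Software, detection calls and scaling method: not given in the sources used here. Both arrays had a 2% trimmed mean of 100.05 over 22690 probe sets, so the ratios are relative to a common level. After 64 control probe sets were set aside, a common 2% trimmed mean was imposed on the other 22626 (factors 1.001 and 0.999), values under the pooled 50th percentile were set to that floor, and log2 was taken. Log2 ratios are orujo minus olive oil.

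Genes were named from the platform annotation, with 1 symbol for 20380 probe sets, no symbol for 1555 and several for 691. By Entrez identifier, 20351 of the first were found in RefSeq's table (GRCm38.p6). Probe sets with several symbols were assigned to no gene. All members were named. From the related list, the 4 highest and 4 lowest ratios, bounds of at least 2-fold and every other peroxiredoxin and glutathione peroxidase were named. The other values of named genes, Sod3, Ccs and the second Tkt probe set were added. Values of Cbs, Cth, Cdo1, Bhmt, Me1, Pgd, Selenof and Eefsec were added to show the content of their roles. The members and lists were chosen with earlier results of these data known. No test was possible with 1 array per diet, whose number limits the precision. The calculation was tested on simulated data. Python 3.11.15, numpy 2.4.6, pandas 2.3.3, scipy 1.17.1 and statsmodels 0.14.6 were used. The alternatives covered scaling (none, median centring, quantile, loess with span 0.4), the floor (percentile 25 or 75, or log2 of value plus floor), a 1.5-fold limit, leaving out shared sequence, and 1 value per gene.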

Additional observations from a re-analysis of the deposited data

How the results depend on the processing

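Of the 15 measured member probe sets, none changed to the opposite sign under the 7 alternatives of scaling and floor, though Gss was at 0 with quantile normalization. None moved by more than the single probe set noise of 0.31. A changed floor percentile cannot alter the ratio of a probe set that stays measured. No scaling and median centring only shift every ratio by a small constant. The dim Sod1 probe set had no ratio with the floor at percentile 75. The Gclc probe sets ranged from −1.15 to −1.05 and from −1.25 to −1.14, and the bright Sod1 probe set from 1.09 to 1.25, so all 3 stayed past 2-fold. The median over the members lay between −0.27 and −0.11. Without probe sets of shared sequence, 1 member was at least 2-fold lower, since 1 Gclc probe set was left out. In the related list, 1 probe set was at least 2-fold higher with no scaling, quantile normalization, loess, log2(value + floor) or no shared sequence, and 4 with the 1.5-fold limit; 2 were lower with the lower floor (percentile 25), 0 with the higher floor (percentile 75) and 0 with log2(value + floor), both through the loss of Chac2, and 5 with the 1.5-fold limit. Over all probe sets, 353 were higher and 373 lower with the lower floor, 78 and 45 with the higher floor, 617 and 585 with the 1.5-fold limit, and 89 and 57 without shared sequence. Fewer or more probe sets tested accompany the changes with floor and shared sequence. Their number was 10462 in the main setting, 15835 with the lower floor, 5183 with the higher floor and 6631 without shared sequence. With the lower floor the counts rose by a larger proportion than this number, so the share past 2-fold was not constant. Other causes were not tested. Signal close to the floor limits the dim Sod1, Sod2, Sod3 and Sepsecs probe sets.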
